A study of Mus musculus with 9 samples.

Results

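The immediate-early feedback regulators are 10 genes of early responses to a stimulus, and the products of several help to end the response. They are Ier2, Ier3, Ier5, Dusp1, Dusp2, Dusp6, Zfp36, Zfp36l1, Btg1 and Btg2. They were taken by symbol from a table of 22322 genes, where each of the 10 has 1 row, and all 10 reached the mean of 1 FPKM (fragments per kilobase of transcript, scaled to library size) over the libraries that the 10866 tested genes had to reach. The cells were long-term haematopoietic stem cells (LT-HSCs) sorted from mouse bone marrow, gated as CD150+ CD48- CD135- within the Lin- Sca-1+ c-Kit+ fraction. There were 3 wild-type (WT) mice, 3 Cxcl10-/- mice and 3 Cxcr3-/- mice, all C57BL/6 and 6 to 8 weeks old. Each library held 500 to 800 cells of 1 mouse, amplified as whole-transcriptome cDNA. Cxcl10 encodes a chemokine and Cxcr3 its receptor, and the series asks how this pair bears on self-renewal and differentiation of the stem cells. The design of the alleles, and whether other cells of the marrow carry them, is not given in the sources used here.

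Immediate-early genes are transcribed within minutes of a growth factor, cytokine or stress signal, without new protein synthesis, mainly through the MAP kinases and the transcription factors these kinases act on. Part of this first wave feeds back on the signal. Phosphatases of the DUSP family switch the MAP kinases off, ZFP36 proteins bind AU-rich elements in short-lived mRNAs and recruit the CCR4-NOT deadenylase, and BTG proteins bind the same deadenylase and slow proliferation. The IER proteins are small nuclear or membrane proteins of early growth and stress responses. In many tissues this set is also known to respond to the handling of living cells before lysis, and LT-HSCs are known for low MAP kinase activity while at rest.

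The expected counts summed to between 12098498 and 17904629 per library. The Cxcl10-/- libraries stood apart from the other 6: 12561 to 13910 genes were above 0, against 14510 to 18346, their quality weights in limma voom were 0.39 to 0.60, against 1.08 to 2.05, and their median correlation between replicates was 0.773, against 0.936 in WT and 0.912 in Cxcr3-/-. Cxcl10 had 0 counts in each Cxcl10-/- library and 3 to 84 in WT, while Cxcr3 had 8 counts in 1 WT library and 0 elsewhere, so its level cannot check the Cxcr3-/- labels. The 10 markers of LT-HSCs were above 0 in all 9 libraries, with summed levels of 603 to 713 FPKM in WT, 619 to 712 in Cxcl10-/- and 593 to 645 in Cxcr3-/-. Ly6a was the largest part of these sums (group means of 313, 336 and 252), and similar sums can hide opposite differences. In Cxcl10-/- against WT, Slamf1 had means of 1.84 against 6.50 FPKM (log2 -1.87 ± 0.69) and Kit 66.5 against 105. Procr lay higher, at 43.7 against 22.3 (0.90 ± 0.38). Of the 10 only Kit passed the test against WT, described below. Markers of other cells differed between genotypes, and not only in Cxcl10-/-. The 10 monocyte and macrophage markers summed to 559 to 687 FPKM in WT, 428 to 480 in Cxcl10-/- and 225 to 408 in Cxcr3-/-. Most of each sum was Lyz2 (group means of 584, 395 and 306). The 8 megakaryocyte markers summed to 288 to 393 FPKM in WT, 279 to 446 in Cxcl10-/- and 466 to 574 in Cxcr3-/-. The 12 endothelial markers summed to 477 to 681 FPKM in Cxcl10-/- against 61.8 to 80.2 in WT and 46.6 to 77.9 in Cxcr3-/-. The 10 stromal and bone markers summed to 85.0 to 340 FPKM in Cxcl10-/-, at most 6.91 in WT and at most 3.33 in Cxcr3-/-, with Bglap at 0 in all 9 libraries and Col1a1 at 0 in 2 of the 3 Cxcl10-/- libraries. The 9 erythroid markers summed to 90.1 to 659 FPKM in Cxcl10-/- and 51.3 to 99.4 in WT. The 9 T and NK cell markers summed to 332 to 401 FPKM in WT, 171 to 225 in Cxcl10-/- and 201 to 406 in Cxcr3-/-, nearly all of it Nkg7 (group means of 357, 196 and 305). Trac and Gzma were at 0 throughout, and none of the Trac and CD3 genes was above 0 in WT. Cd3e was above 0 in 1 Cxcl10-/- library. In Cxcr3-/-, Cd3d, Cd3e and Cd3g were each at 0 in 2 of the 3 libraries. The transcripts of the mitochondrial genome took 3.57% to 4.13% of the counts in Cxcl10-/-, 12.6% to 13.1% in WT and 10.2% to 11.2% in Cxcr3-/-. In bulk libraries of this kind, a change in the number of cells that express a gene and a change in the RNA per cell cannot be told apart.

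Of the 10 regulators, 4 rose in Cxcl10-/- against WT: Ier2, Dusp1, Zfp36 and Btg2, by 6.11-fold, 3.87-fold, 6.59-fold and 18.1-fold. Each family of the set thus holds 1 gene that rose and at least 1 that did not pass the test. Over all tested genes 3.52% were called higher in this comparison, and 7.22% in either direction. None of the 10 passed in Cxcr3-/- against WT, where 0.0% of all genes did. Against Cxcl10-/-, the Cxcr3-/- libraries were lower in Ier2, Dusp1 and Btg2 (5.41% of all genes were called lower) and in none higher. Calls are at a Benjamini-Hochberg adjusted p under 0.05 in edgeR's quasi-likelihood test over all 10866 genes, and log2 fold changes carry their standard error (SE). Levels are FPKM, which allow genes of different length to be compared, whereas fold changes come from the counts.

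**Figure D1:**
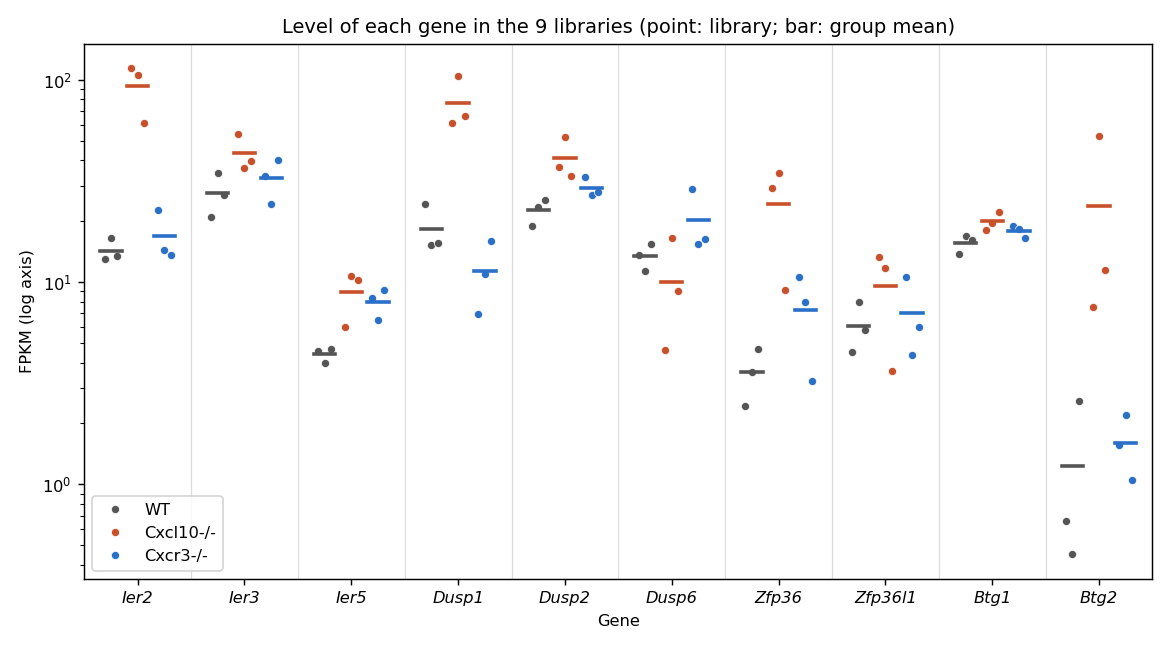
FPKM (log axis) of the 10 genes in the 9 libraries, with WT in grey, Cxcl10-/- in orange and Cxcr3-/- in blue; points are libraries and bars are group means. For Ier2 the Cxcl10-/- libraries lie at 61.3 to 114 FPKM and the other 6 at 13.1 to 22.7.

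Ier2 encodes a nuclear protein that acts with transcription factors of the early response. It stood at 13.1, 16.4 and 13.5 FPKM in the 3 WT libraries, 114, 106 and 61.3 in Cxcl10-/- and 22.7, 14.4 and 13.7 in Cxcr3-/-. Every Cxcl10-/- library was above each of the other 6, and the WT and Cxcr3-/- libraries overlapped. The rise against WT was 2.61 ± 0.30 (log2, SE, n = 3 per group, edgeR adjusted p = 0.00126). Cxcr3-/- was lower than Cxcl10-/- by a log2 difference of -2.44 ± 0.30 (adjusted p = 0.00108), and differed from WT by 0.17 ± 0.28 (0.988). Ier2 kept both calls under all 19 alternative settings, with log2 values of 2.45 to 2.82 against WT.

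Ier3 encodes a stress-inducible membrane protein that affects survival and ERK signalling. It was the most abundant of the 10 in WT, at 20.9, 34.7 and 27.1 FPKM, and stood at 53.8, 36.5 and 39.6 in Cxcl10-/- and 33.4, 24.3 and 40.3 in Cxcr3-/-. The Cxcl10-/- values lay above WT by a narrow margin that was lost on the TMM-scaled counts, and the log2 difference of 0.56 ± 0.31 was not called (adjusted p = 0.299). Ier5, which encodes a regulator of the heat shock factor HSF1, stood at 4.57, 3.98 and 4.65 FPKM in WT, 5.99, 10.7 and 10.2 in Cxcl10-/- and 8.32, 6.46 and 9.13 in Cxcr3-/-. Both knockouts lay above WT without overlap. The log2 differences from WT were 0.94 ± 0.36 in Cxcl10-/- (adjusted p = 0.133) and 0.79 ± 0.36 in Cxcr3-/- (0.795), and neither passed. Both differences share the WT libraries.

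Dusp1 encodes a nuclear phosphatase that inactivates the stress-activated MAP kinases as well as ERK. It stood at 24.3, 15.3 and 15.5 FPKM in WT, 61.1, 104 and 66.1 in Cxcl10-/- and 6.94, 11.0 and 16.0 in Cxcr3-/-. Cxcl10-/- was above every other library, and the Cxcr3-/- values reached from below WT into its range. Against WT, Dusp1 rose by 1.95 ± 0.36 in Cxcl10-/- (adjusted p = 0.0096). Between Cxcr3-/- and Cxcl10-/- the difference was -2.77 ± 0.37 (adjusted p = 0.00174), the largest fall among the 10 after that of Btg2, and it was called under all 19 alternatives. Cxcr3-/- against WT gave -0.82 ± 0.36, which did not pass (adjusted p = 0.772). When WT replicate 2 (1.82, adjusted p = 0.0622) or 3 (1.83, 0.0537) was left out, the rise against WT was not called. Dusp1 exons overlap those of Ergic1 on the opposite strand in GENCODE M21, and whether the counting used strand is not given in the sources used here; Ergic1 itself differed by 0.27 ± 0.53 in Cxcl10-/- against WT (adjusted p = 0.802).

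Dusp2, which encodes an inducible nuclear phosphatase of blood cells, was the second most abundant of the 10 in WT. It stood at 19.0, 23.6 and 25.5 FPKM in WT, 37.0, 52.2 and 33.6 in Cxcl10-/- and 33.0, 27.0 and 28.0 in Cxcr3-/-. All Cxcl10-/- libraries were the highest and all WT libraries the lowest, with no overlap among the 3 genotypes. The log2 differences were nonetheless not called: 0.76 ± 0.26 in Cxcl10-/- against WT (adjusted p = 0.0921), 0.31 ± 0.25 in Cxcr3-/- against WT (0.941) and, between the knockouts, -0.45 ± 0.25 (0.293). Dusp6 encodes the cytoplasmic phosphatase specific for ERK. It stood at 13.6, 11.3 and 15.4 FPKM in WT, 4.60, 16.5 and 9.04 in Cxcl10-/- and 28.8, 15.5 and 16.4 in Cxcr3-/-, and was the one regulator whose log2 difference in Cxcl10-/- against WT was below 0 (-0.56 ± 0.43, adjusted p = 0.469). Its Cxcl10-/- libraries overlapped both other genotypes. Without Cxcl10-/- replicate 2, the library with the highest Dusp6 level of that genotype, Dusp6 was called higher in Cxcr3-/- than in Cxcl10-/- (1.55, adjusted p = 0.0404, against 1.03 ± 0.43 and 0.153 with all libraries).

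The windows around the start sites of Dusp1, which rose in Cxcl10-/-, and of Dusp6, which did not, are shown because they differ in the cAMP response element (CRE, TGACGTCA, bound by CREB and ATF factors). They run from 250 bases before to 50 bases after the start site, 5′ to 3′ on the strand of the gene, from RefSeq on GRCm38.p6. Dusp1 lies at chr17:26508423-26508722, minus strand, and Dusp6 at chr10:99262981-99263280, plus strand. Capitals mark the CRE and its core TGACG on either strand.
Dusp1: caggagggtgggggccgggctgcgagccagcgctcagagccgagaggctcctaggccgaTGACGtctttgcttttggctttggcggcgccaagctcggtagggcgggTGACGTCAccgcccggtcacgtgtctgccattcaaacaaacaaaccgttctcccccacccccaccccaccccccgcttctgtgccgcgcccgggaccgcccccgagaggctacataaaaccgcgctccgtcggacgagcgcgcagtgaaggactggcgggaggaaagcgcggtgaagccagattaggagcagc
Dusp6: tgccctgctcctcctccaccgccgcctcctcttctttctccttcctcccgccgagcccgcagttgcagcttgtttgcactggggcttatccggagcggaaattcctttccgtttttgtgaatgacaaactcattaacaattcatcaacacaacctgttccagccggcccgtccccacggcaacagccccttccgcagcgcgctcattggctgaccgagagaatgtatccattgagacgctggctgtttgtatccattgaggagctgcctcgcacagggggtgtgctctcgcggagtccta
The Dusp1 window holds a CRE whose first base lies 143 bases before the start site and a further TGACG at 191 bases before it; the Dusp6 window holds neither. Dusp2 has 1 core match, on the opposite strand, after its start site.

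Zfp36 encodes tristetraprolin, which binds AU-rich elements and speeds the decay of cytokine and early response mRNAs, its own included. It stood at 2.43, 3.60 and 4.69 FPKM in WT, 29.2, 34.7 and 9.11 in Cxcl10-/- and 10.5, 7.93 and 3.26 in Cxcr3-/-. Its Cxcl10-/- libraries lay above WT, with replicate 3 well below the other two, and overlapped Cxcr3-/-. The rise against WT was 2.72 ± 0.55 (adjusted p = 0.0135). Leaving out WT replicate 1 (2.52, adjusted p = 0.0708) or 2 (2.72, 0.0729) ended this call. In Cxcr3-/- against Cxcl10-/- the difference of -1.76 ± 0.53 did not pass (adjusted p = 0.0523), but it did without Cxcl10-/- replicate 3 (-2.15, 0.0158), in DESeq2 (-1.77, 0.00864), in limma voom with sample quality weights (-1.79, 0.0436) and with no filter on low values (-1.80, 0.0047). Cxcr3-/- against WT gave 0.96 ± 0.52 (adjusted p = 0.857).

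Zfp36l1 encodes a paralogue that binds the same elements and is known for its part in lymphocyte quiescence. It stood at 4.52, 7.98 and 5.79 FPKM in WT, 13.3, 11.8 and 3.65 in Cxcl10-/- and 10.6, 4.36 and 6.03 in Cxcr3-/-. All genotypes overlapped, and the log2 difference in Cxcl10-/- against WT was 0.55 ± 0.50 (adjusted p = 0.54). In Cxcl10-/-, replicate 3 was the lowest library for both Zfp36 and Zfp36l1. Antisense or divergent long noncoding RNA models that are not rows of the table overlap exons of both genes.

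Their start-site windows are given on the same terms, Zfp36 at chr7:28379179-28379478, minus strand and Zfp36l1 at chr12:80112964-80113263, minus strand. Capitals mark the CArG box, the element bound by serum response factor, and the TATA box (TATAAA, searched on the gene's strand).
Zfp36: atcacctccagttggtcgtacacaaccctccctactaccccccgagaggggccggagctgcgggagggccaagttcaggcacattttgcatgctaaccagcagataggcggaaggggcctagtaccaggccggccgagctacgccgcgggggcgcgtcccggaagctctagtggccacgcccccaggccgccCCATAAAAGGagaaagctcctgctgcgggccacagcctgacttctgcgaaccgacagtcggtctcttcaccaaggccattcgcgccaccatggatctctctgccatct
Zfp36l1: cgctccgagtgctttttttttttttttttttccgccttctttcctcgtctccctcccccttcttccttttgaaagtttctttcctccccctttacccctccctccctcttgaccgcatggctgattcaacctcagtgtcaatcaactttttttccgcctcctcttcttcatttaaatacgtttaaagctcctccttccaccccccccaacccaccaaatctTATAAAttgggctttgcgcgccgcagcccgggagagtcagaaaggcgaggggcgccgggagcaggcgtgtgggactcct
Zfp36 holds a CArG box whose first base lies 58 bases before the start site, and Zfp36l1 a TATA box 29 bases before it.

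Btg2, a target of p53 and of growth signals, encodes an antiproliferative protein that binds the deadenylase subunit CNOT7. It stood at 0.66, 0.45 and 2.57 FPKM in WT, 7.56, 52.6 and 11.5 in Cxcl10-/- and 1.57, 2.21 and 1.05 in Cxcr3-/-. These rest on 26, 19 and 126 counts in WT and 281, 2040 and 500 in Cxcl10-/-. Every Cxcl10-/- library was above the other 6, replicate 2 by far, and WT replicate 3 was above every Cxcr3-/- library. The rise against WT of 4.18 ± 0.84 (adjusted p = 0.0134) was the largest of the 10 and had the widest error. It was 2.90 without Cxcl10-/- replicate 2 (adjusted p = 0.0419), 5.29 without WT replicate 3 (0.021), and not called when WT replicate 1 (3.89, 0.0706) or 2 (3.78, 0.0719) was left out. Relative to Cxcl10-/-, Cxcr3-/- stood at -3.84 ± 0.82 (adjusted p = 0.0143), which ended without Cxcl10-/- replicate 2 (-2.56, 0.0544), Cxcr3-/- replicate 1 (-3.80, 0.0689) or Cxcr3-/- replicate 3 (-3.62, 0.0639). Cxcr3-/- against WT gave 0.34 ± 0.76 (0.997).

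Btg1 encodes the paralogue of Btg2 and was the steadiest of the 10. It stood at 13.8, 16.8 and 16.1 FPKM in WT, 18.1, 19.7 and 22.1 in Cxcl10-/- and 18.9, 18.2 and 16.5 in Cxcr3-/-. Its Cxcl10-/- libraries lay just above WT, by 0.28 ± 0.19 on the log2 scale (adjusted p = 0.413). The SD of its log2 library-scaled counts (CPM) between replicates was 0.11 for WT, 0.19 for Cxcl10-/- and 0.08 for Cxcr3-/-, against 1.24, 1.45 and 0.51 for Btg2 and a median over all tested genes of 0.28, 0.55 and 0.35.

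The windows of Btg1, at chr10:96616751-96617050, plus strand, and Btg2, at chr1:134079106-134079405, minus strand, are shown because Btg2 shares the full CRE with Dusp1. Capitals mark the CRE, its core and the TATA box.
Btg1: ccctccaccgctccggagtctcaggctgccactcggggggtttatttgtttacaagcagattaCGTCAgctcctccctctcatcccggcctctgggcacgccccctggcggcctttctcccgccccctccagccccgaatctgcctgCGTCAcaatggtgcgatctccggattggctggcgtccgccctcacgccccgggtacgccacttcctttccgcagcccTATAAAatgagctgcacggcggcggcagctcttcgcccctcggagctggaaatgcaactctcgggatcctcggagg
Btg2: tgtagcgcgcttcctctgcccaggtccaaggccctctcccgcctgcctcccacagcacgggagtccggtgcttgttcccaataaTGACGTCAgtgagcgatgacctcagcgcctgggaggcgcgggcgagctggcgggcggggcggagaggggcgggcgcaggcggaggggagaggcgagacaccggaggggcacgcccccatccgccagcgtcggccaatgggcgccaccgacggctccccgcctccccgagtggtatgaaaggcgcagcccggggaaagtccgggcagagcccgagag
The Btg2 window holds a CRE whose first base lies 166 bases before the start site, while that of Btg1 holds 2 matches to the core on the opposite strand and a TATA box. Of the 9 regulators with a window (all but Ier2), Dusp1 and Btg2 hold the full CRE, which 1.8% of all 32544 such windows and 3.29% of those of tested genes do. The core is in 4 of the 9 (20.9% of all windows, 33.2% of those of tested genes), the CArG box in 1 (1.64% and 1.38%) and the TATA box in 2 (8.28% and 4.16%). An AP-1 site (TGANTCA) is in 1 of the 9 (7.79% and 4.59%), an EGR site (GCGNGGGCG) in 3 (5.6% and 10.6%) and an ETS site (CCGGAA) in 1 (15.0% and 30.7%). Each motif but the TATA box was searched on both strands, and a full CRE also counts as a core. Among the regulators called higher in Cxcl10-/-, Zfp36 holds neither the CRE nor its core, and Ier2 has no window. Btg1 and Dusp2, which were not called, hold the core. These matches describe the letters of the windows and no binding was measured. A link between the motifs and the levels was not tested.

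**Figure D2:**
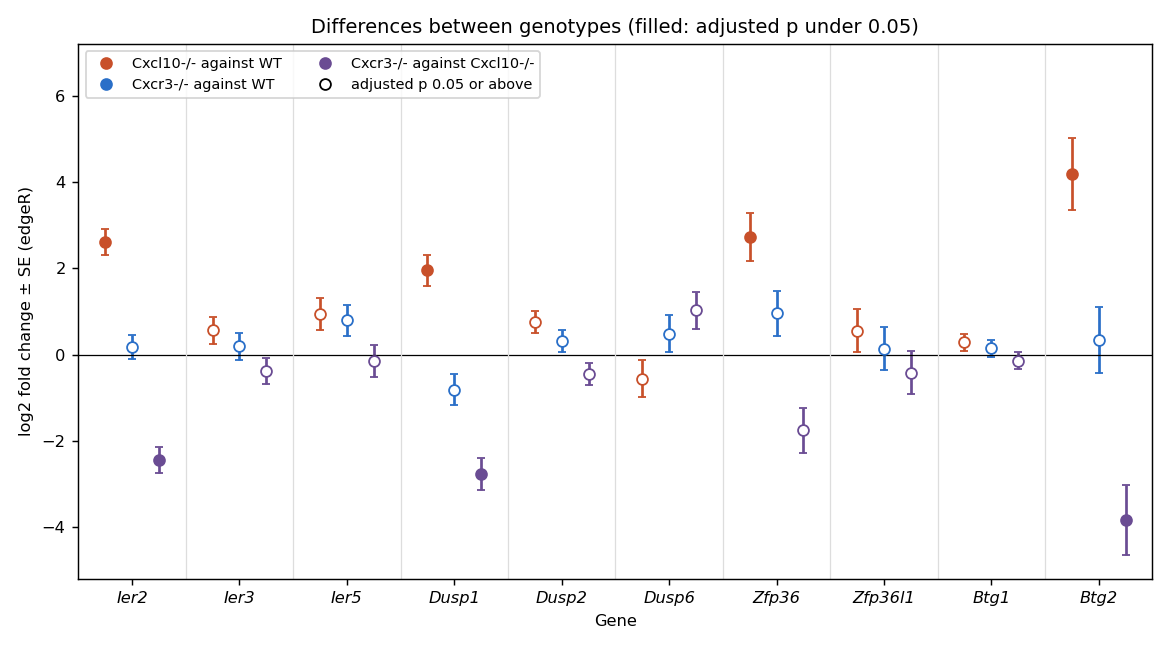
Log2 fold change from edgeR with its SE for each gene in Cxcl10-/- against WT (orange), Cxcr3-/- against WT (blue) and Cxcr3-/- against Cxcl10-/- (purple); filled points passed at an adjusted p under 0.05. Ier2, Dusp1, Zfp36 and Btg2 passed in the first, none in the second, and Ier2, Dusp1 and Btg2 in the third.

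Since ZFP36 proteins act through AU-rich elements, the heptamer TATTTAT was counted in the 3′ UTR of the longest protein-coding transcript of each gene in GENCODE M21. It occurred in 6 of the 10 regulators: 4 times in Ier3, 3 times each in Dusp1, Zfp36 and Zfp36l1, and 1 time each in Dusp2 and Btg2. Ier2, Ier5, Dusp6 and Btg1 had no match. Of 10597 tested genes with such a transcript, 29.8% had a match, with a median 3′ UTR of 1128 bases against 982 for the 10. For 3 of the 4 genes with at least 3 matches, the 30 bases that hold the most of them are shown, with the heptamer in capitals and U written as T.
Ier3: tccgtgtctaattaaTATTTATgTATTTAT
Dusp1: ggagctggtcctTATTTATttaacaccccc
Zfp36: gggcccttTATTTATgacgacttTATTTAT
Genes with the heptamer are found among those called higher in Cxcl10-/- (Dusp1, Zfp36, Btg2) and among those not called (Ier3, Dusp2, Zfp36l1), and Ier2, which rose, has none.

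Without regard to the test, the FPKM of 8 of the 10 regulators were higher in every Cxcl10-/- library than in every WT library, all but Dusp6 and Zfp36l1; over all tested genes the share was 18.3%. On the TMM-scaled counts it was 7 of the 10, without Ier3, against 14.8%. The median log2 difference of the 10 was 0.85, and that of all genes 0.06. Between Cxcr3-/- and WT, 3 of the 10 lay higher in Cxcr3-/- without overlap in FPKM (Ier5, Dusp2 and Dusp6), where 12.1% of all genes did, and the median was 0.25 against 0.02. On the TMM-scaled counts 2 lay higher (Ier5 and Dusp2, 9.81% of all genes) and Dusp1 lower (9.04%). An unadjusted p under 0.05 was reached by 2 of the 10, Ier5 and Dusp1, and by 6.27% of all genes. Cxcr3-/- set against Cxcl10-/- had 4 that lay lower without overlap (Ier2, Dusp1, Dusp2 and Btg2), where 16.4% of all genes did, and the median was -0.44 against -0.05.

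Ratios of family members within a library do not depend on how libraries are scaled. The 6 pairs were chosen after the values had been seen and are given as a description. The log2 ratio of Zfp36 to Zfp36l1 was -0.90, -1.15 and -0.30 in WT, 1.13, 1.56 and 1.32 in Cxcl10-/- and -0.01, 0.86 and -0.89 in Cxcr3-/-. Zfp36 was thus the less abundant of this pair in WT and the more abundant in Cxcl10-/-. The ratio of Btg2 to Btg1 was -4.08 ± 1.32 (SD, n = 3) in WT, -0.26 ± 1.46 in Cxcl10-/- and -3.53 ± 0.47 in Cxcr3-/-. Dusp1 to Dusp6 stood at 0.43 ± 0.41 in WT, 3.09 ± 0.57 in Cxcl10-/- and -0.86 ± 1.06 in Cxcr3-/-, with no overlap among the 3 genotypes. Dusp1 to Dusp2 showed the same order, at -0.33 ± 0.59, 0.90 ± 0.15 and -1.45 ± 0.74. Ier2 to Ier3 stood at -0.92 ± 0.21 in WT, 1.08 ± 0.45 in Cxcl10-/- and -0.96 ± 0.53 in Cxcr3-/-. Ier2 to Ier5 stood at 1.70 ± 0.30, 3.38 ± 0.84 and 1.06 ± 0.44, without overlap among the genotypes.

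**Figure D3:**
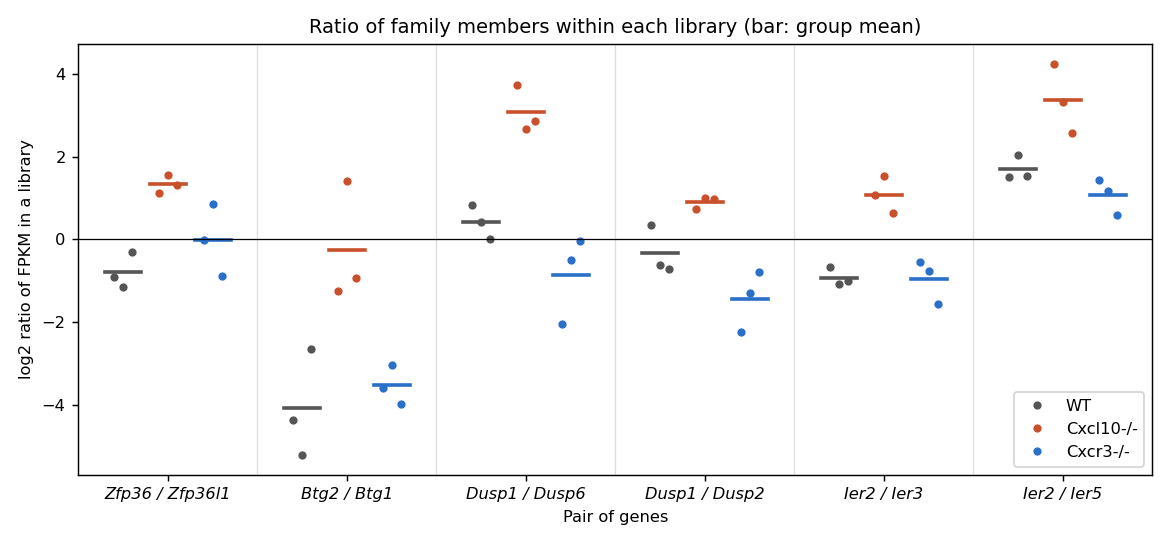
Log2 ratio of FPKM of 6 pairs of family members in each library, with WT in grey, Cxcl10-/- in orange and Cxcr3-/- in blue; bars are group means. For Dusp1 over Dusp6 the group means are 0.43 in WT, 3.09 in Cxcl10-/- and -0.86 in Cxcr3-/-.

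Levels in WT ran in order from Ier3 (27.6 ± 6.91 FPKM, SD, n = 3) through Dusp2 (22.7 ± 3.34), Dusp1 (18.4 ± 5.13), Btg1 (15.5 ± 1.59), Ier2 (14.3 ± 1.84) and Dusp6 (13.4 ± 2.02) to Zfp36l1 (6.10 ± 1.75), Ier5 (4.40 ± 0.366), Zfp36 (3.57 ± 1.13) and Btg2 (1.23 ± 1.17). Neighbours in this order overlapped between libraries, except Dusp6 and Zfp36l1. Among all tested genes, Ier3 was at percentile 74.0 and Btg2 at 5.55 in WT. In Cxcl10-/- the order opened with Ier2 (93.6 ± 28.3) and Dusp1 (77.2 ± 23.7), which overlapped each other and were both above Ier3 (43.3 ± 9.22). Zfp36 (24.3 ± 13.4) and Btg2 (23.9 ± 25.0) stood in the middle, and Ier5 (8.96 ± 2.58) was last. In Cxcr3-/- the order opened with Ier3 (32.6 ± 8.01) and Dusp2 (29.3 ± 3.21) as in WT, and Dusp1 (11.3 ± 4.56) followed Ier2 (16.9 ± 4.99).

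Cxcl10-/- replicate 2 had the highest level within its genotype of 6 of the 10 regulators, Ier5, Dusp1, Dusp2, Dusp6, Zfp36 and Btg2, and also the highest summed endothelial (681 FPKM), stromal (340) and erythroid (659) markers. Ier2, Ier3 and Zfp36l1 were highest in Cxcl10-/- replicate 1, where those sums were 477, 97.2 and 90.1 FPKM. Btg1 was highest in replicate 3, where they were 503, 85.0 and 367. Without replicate 2 the same 4 regulators were called against WT, with Ier2 at 2.53 (adjusted p = 0.00393), Dusp1 at 1.71 (0.0234) and Zfp36 at 2.45 (0.0293) beside the value of Btg2 above. Over all tested genes 3.52% were called higher in Cxcl10-/- against WT. Of the endothelial markers, 6 of 12 tested passed as higher in this comparison and none as lower, with Fabp4 at 5.10 ± 0.70, Stab1 at 6.37 ± 0.96 and Stab2 at 5.23 ± 0.88. Of 10 stromal and bone markers 5 were tested and 4 passed as higher, with Sparc at 5.33 ± 0.71, Ibsp at 7.40 ± 1.15 and Cxcl12 at 6.74 ± 1.32. Cxcl12 was 4.94 and not called without Cxcl10-/- replicate 2 (adjusted p = 0.0512), and it also lost its call without WT replicate 1 (6.30, 0.0598) or 2 (6.20, 0.0609). Without WT replicate 3, the WT library with the most of both, Cxcl12 stood at 9.49, and Ibsp was listed at 0 in the WT libraries that remained, so its fitted fold there has no meaning. In 7 of these 12 endothelial and 4 of these 5 stromal genes, WT or Cxcl10-/- had a mean under 1 FPKM, so they were tested largely because they were high in the other group. Of the other markers, Vcam1 (3.74 ± 0.64) of the monocyte and macrophage list and Hba-a1 (2.94 ± 0.65; it has a near-identical copy, Hba-a2) of the erythroid list were higher, Kit of the LT-HSC list (-0.75 ± 0.17) and Nkg7 of the T and NK cell list (-0.98 ± 0.23) were lower, and no neutrophil, B cell or megakaryocyte marker passed. Vcam1 was the only one of the 6 tested monocyte and macrophage markers to pass. The summed level of that list was lower in Cxcl10-/- than in WT, but it was mostly Lyz2 and does not give the direction of the other markers. Among the 5 not called, Lyz2 (-0.65 ± 0.22) and Cd68 (-0.65 ± 1.08) lay lower and Csf1r, C1qb and C1qc higher. The calls of Kit and Nkg7 were lost under 6 and 4 of 19 alternatives. Hba-a1 was 2.13 and not called without Cxcl10-/- replicate 2 (adjusted p = 0.0682), and its call ended as well with any 1 WT library left out (2.55 to 3.33, adjusted p from 0.0554 to 0.0888). The part of these cells in the levels of the 10 regulators was not tested, nor was that of the fewer genes above 0 and the lower replicate correlation of the Cxcl10-/- libraries. With the transcripts of the mitochondrial genome left out, the same 4 regulators passed against WT.

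Other genes of the same pathways were read from lists that exclude the 10. Of 20 immediate-early transcription factors, 14 were tested and 11 passed as higher in Cxcl10-/- against WT, none as lower, with a median of 2.71. The share called higher over all tested genes was 3.52%, for this list and the next. Fos rose by 6.84 ± 0.86, Egr1 by 4.36 ± 0.59 and Junb by 2.69 ± 0.50. In 4 of the 14 a group mean was under 1 FPKM, which partly fixes that median. None passed in Cxcr3-/- against WT. Relative to Cxcl10-/-, 10 were lower in Cxcr3-/- (5.41% of all tested genes were), among them Jun (-5.57 ± 0.63), and 1 was higher, Myc (0.97 ± 0.22). Of 19 tested other early response genes of 23, 3 passed as higher in Cxcl10-/- against WT: Ppp1r15a, which encodes a phosphatase subunit of the integrated stress response (2.07 ± 0.39), the kinase gene Pim1 (1.42 ± 0.31) and the survival gene Mcl1 (0.89 ± 0.18). Their list had a median of 0.89, and 3 of the 19 had a group mean under 1 FPKM, so that the filter partly fixes it too.

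Lists closer to the regulators in function were read beside the 7.22% of all genes called in either direction in Cxcl10-/- against WT. More genes passed between the knockouts, as counted in the closing section. The other MAP kinase phosphatases had 3 tested members of 7, Dusp5, Dusp7 and Dusp16, and none passed in any comparison (0.97 ± 0.89, 0.56 ± 0.77 and -0.33 ± 0.44 in Cxcl10-/- against WT). Of the Sprouty, Spred and Errfi1 genes, inhibitors of receptor signalling to ERK, 4 of 8 were tested. Spred1 was lower in Cxcl10-/- than in WT (-1.12 ± 0.27, adjusted p = 0.0323) and higher in Cxcr3-/- than in Cxcl10-/- (1.22 ± 0.28, 0.0178). Of the other ZFP36 and BTG/TOB genes 4 of 6 were tested and none passed against WT. Zfp36l2, at 327 ± 20.3 FPKM in WT far above its paralogues, stood at 263 ± 18.5 in Cxcl10-/- and 358 ± 67.7 in Cxcr3-/- and was higher in Cxcr3-/- than in Cxcl10-/- (0.47 ± 0.13, adjusted p = 0.0439), a call lost under 15 of 19 alternatives. Of the 13 deadenylase subunits, all tested, Cnot6 (-0.80 ± 0.18) and Cnot7 (-0.77 ± 0.19), both catalytic, were lower in Cxcl10-/- against WT. The call of Cnot7 was lost under 9 of 19 alternatives, that of Cnot6 under 4 and that of Spred1 against WT under 5. Between the knockouts, 3 of the 13 were higher in Cxcr3-/-: Cnot6 (0.94 ± 0.18), Cnot6l (0.61 ± 0.17) and Cnot7 (0.66 ± 0.18). These calls were lost under 2, 14 and 13 of 19 alternatives, and Cnot6l changed sign under 2 more.

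Of 25 genes of the MAP kinase cascade with SRF, 23 were tested and 2 passed in Cxcl10-/- against WT. That share is close to the 7.22% of all genes called in either direction. Braf (-1.29 ± 0.34) and Mapk9, which encodes a JNK kinase (-1.14 ± 0.28), were lower in Cxcl10-/- against WT, with a median of 0.05 for the list. The call of Braf was lost under 12 of 19 alternatives and that of Mapk9 under 8. Of 14 messages known to be bound by ZFP36 proteins, 7 were tested and none passed against WT in either knockout (median 0.04 in Cxcl10-/-). Of 14 p53 targets, 8 were tested. Plk2, which encodes a stress-induced kinase, was higher (2.37 ± 0.58) and Trp53inp1 lower (-1.46 ± 0.38) in Cxcl10-/- against WT, calls lost under 6 and 11 of 19 alternatives, and Cdkn1a did not pass (0.89 ± 0.65, adjusted p = 0.44). Of 8 heat shock genes 6 were tested and 1 passed, Hspe1, a mitochondrial co-chaperone (0.55 ± 0.14), with a median of 0.52. Its call was lost under 8 of 19 alternatives, among them leaving out any 1 WT library. Of these 6, Hspb1 had the largest difference with the widest error (4.69 ± 1.79, adjusted p = 0.13). The inducible chaperone genes Hspa1a and Hspa1b did not reach the filter. Hspa1b stood at 0.54, 2.60 and 0.50 FPKM in WT, 0, 0.03 and 0.14 in Cxcl10-/- and 1.98, 0.11 and 0.15 in Cxcr3-/-. These levels are near the floor and their differences were not tested. Hspa1a had 61 counts in WT replicate 2 and at most 3 in each of the other 8 libraries; the 2 genes are near-identical copies, so the split of reads between them is uncertain. No gene of any list passed between Cxcr3-/- and WT.

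**Figure D4:**
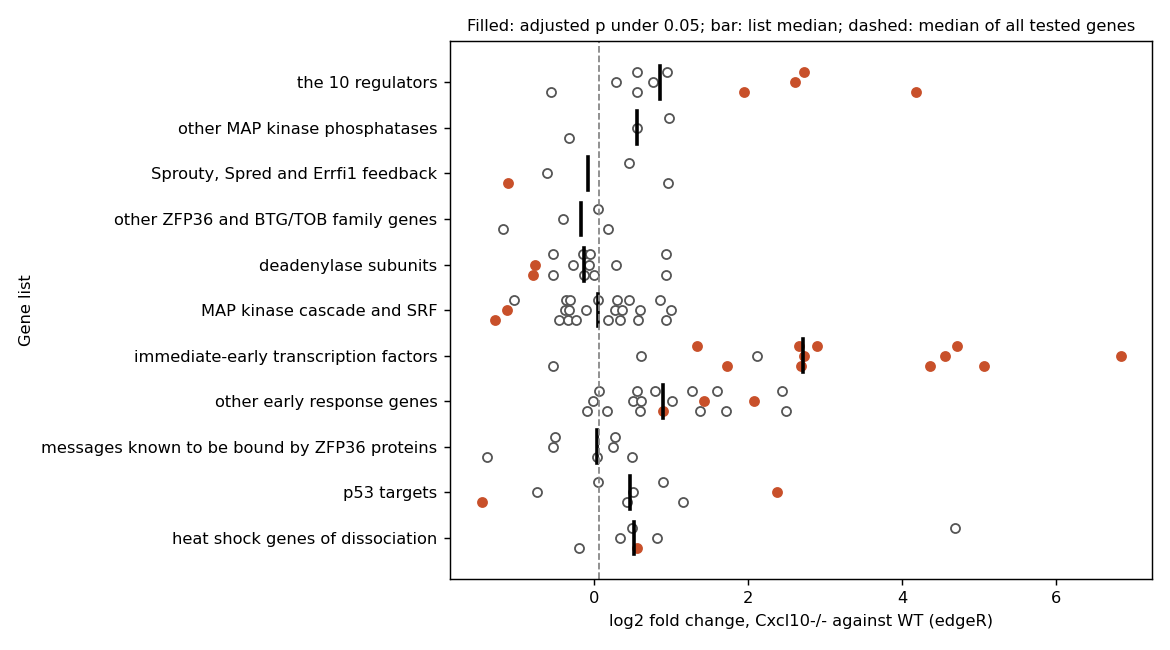
Log2 fold change (edgeR) of each tested gene in Cxcl10-/- against WT, by list; filled points passed at an adjusted p under 0.05, bars are list medians and the dashed line is the median of all tested genes, 0.06. The immediate-early transcription factors have a median of 2.71, the 10 regulators 0.85 and the deadenylase subunits -0.13.

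For each regulator that passed in a comparison, the gene with the most similar profile was taken as that with the smallest root mean square difference of centred log2 CPM over the 9 libraries, among 10513 named genes. For Ier2 it was Jund, which encodes an AP-1 subunit (0.30, where the median gene differed by 1.34). Jund stood at 1.94 to 2.52 FPKM in WT, 13.2 to 19.6 in Cxcl10-/- and 1.44 to 2.53 in Cxcr3-/-. For Zfp36 it was Nr4a2, which encodes an orphan nuclear receptor of the early response (0.40 against a median of 1.36). For Dusp1 it was Trp53rkb, whose reads may be shared with its close copy Trp53rka (0.36 against 1.38), which stood at 3.19 to 5.14 FPKM in WT, 10.9 to 11.2 in Cxcl10-/- and 1.38 to 5.15 in Cxcr3-/-. For Btg2 it was Vcam1, which encodes an adhesion molecule of stromal, endothelial and macrophage cells (0.86 against 2.07); its distance is the largest of the 4.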

How the data were processed

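RNA of sorted LT-HSCs from 9 mice was measured in 1 library per mouse. The authors deposited FPKM and, per the file headers, counts per gene, of which 87.1% are whole and the rest fractional, so that they were treated as estimated counts. Tools named by the submitters' processing notes are RSEM, StringTie, HISAT2 and fastp, with no version; build and strand setting are not given. Counts were rounded, and genes averaging 1 FPKM or more were tested with edgeR 4.0.16 (quasi-likelihood, TMM factors) in R 4.3.3, with 1 mean per genotype, no block and 6 residual degrees of freedom. The SE is the log2 fold change divided by the square root of F. Alternatives used DESeq2 1.42.0, limma 3.58.1 on log2(FPKM + 1) or log2(FPKM + 0.1), limma voom, other scaling, other filters and each library left out. The script was tested on simulated data. The members, gene lists and tests were chosen with earlier results of these data known. Named were the 10 members, Cxcl10, Cxcr3, up to 3 genes per list by smallest p among those that passed, and the most similar gene of each member that passed; Ergic1, Dusp5, Dusp7, Dusp16, Cdkn1a, Hspb1, Hspa1a and Hspa1b, and Gzma, Cd3e and the other markers named at or near 0, were named after their values were seen. So were Ly6a, Slamf1, Procr, Lyz2, Cd68, Csf1r, C1qb and C1qc. The mice of a group are separate animals per the design text, and no litter, day or batch is given. Reads carry no molecular identifiers. With 3 libraries per group an exact permutation test cannot go below p = 0.1 (two-sided), so none is reported.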

Additional observations from a re-analysis of the deposited data

How the results depend on the processing

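In Cxcl10-/- against WT 785 genes passed, 383 higher and 402 lower. The count was 1498 in DESeq2, 1183 with no filter on low values, 414 with only the 2 groups compared and 442 with the replicate number as a block, and 193 to 1003 with 1 library left out, lowest without a WT library (229, 193 and 253). Of the regulators 4 passed in every setting that kept all libraries, and 1 to 4 with 1 library left out: 2 without WT replicate 1, 1 without WT replicate 2 and 3 without WT replicate 3. In Cxcr3-/- against WT no gene passed (681 at an unadjusted p under 0.05). DESeq2 called 78, limma voom with sample quality weights 39, edgeR with no filter on low values 38, and leaving out 1 library 0 to 6; none was a regulator, though DESeq2 gave the regulators no adjusted p there. In Cxcr3-/- against Cxcl10-/- 1142 passed, 1814 in DESeq2, 625 in limma voom, 423 with only the 2 groups compared and 423 to 1407 with 1 library left out (423 without Cxcr3-/- replicate 1, 517 without replicate 3), with 2 to 4 regulators. On log2(FPKM + 1) the split of higher and lower calls was 663 and 345 in Cxcl10-/- against WT, and 510 and 849 in Cxcr3-/- against Cxcl10-/-, where edgeR gave 554 and 588. Replicate numbers did not pair the libraries: same-numbered deviations correlated at -0.08 to 0.02, and the block changed no call of a regulator.

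Changes of sign arose for regulators far from the threshold in Cxcr3-/- against WT: with 1 library left out, Ier2 ranged from -0.07 (without Cxcr3-/- replicate 1) to 0.29, Ier3 from -0.01 (without Cxcr3-/- replicate 3) to 0.37, Zfp36l1 from -0.27 (without Cxcr3-/- replicate 1; -0.03 without WT replicate 1) to 0.37 and Btg2 from -0.06 (without WT replicate 2) to 1.45. Zfp36l1 stood at -0.02 in limma voom. Cnot6l was higher in Cxcr3-/- than in Cxcl10-/- in edgeR (0.61 ± 0.17) but stood at -0.26 on log2(FPKM + 1) and -0.27 on log2(FPKM + 0.1). The causes were not tested. Depth was at least 87 counts in every library for each regulator but Btg2, whose lowest was 19.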
